A study of Bos taurus with 6 samples.

Results

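Lipid droplets are stores of triacylglycerol wrapped in a coat of proteins, and 10 genes of that coat and of its breakdown were followed in longissimus thoracis (LT) muscle of Hanwoo (Korean native cattle) steers. They were the perilipins PLIN1 to PLIN5, the CIDE proteins CIDEA and CIDEC, and the lipases PNPLA2, LIPE and MGLL. The 10 were taken by symbol from the raw count files, where each was found once among 23015 rows, and all 10 passed the filter on low counts. By where each protein is best known, PLIN1, PLIN4, CIDEA and CIDEC were handled as adipocyte droplet genes and PLIN2, PLIN3 and PLIN5 as muscle droplet genes.

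One LT library came from each of 6 steers, raised conventionally on commercial feed. Steers 3-8, 10-8 and 10-9 had a high number of fine marbling particles (NFMP), the small flecks of fat on the cut face of the muscle, and were aged 32.5, 33.8 and 34.5 months. Steers 3-1, 3-3 and 10-16 had a low NFMP and were aged 37.8, 33.7 and 35.4 months. The ages of the groups overlapped but were not balanced, as 3-1 and 10-16 were older than every high-NFMP steer. NFMP was the trait by which the steers were picked, and the methods describe it as related to quality grade, so a difference in fineness and a difference in the amount of marbling cannot be told apart here. A piece of LT holds muscle fibres, fat cells, vessels and connective tissue together, and fewer cells of a type and less RNA per cell cannot be told apart in such a sample.

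As background, fat cells and muscle fibres coat their droplets differently. PLIN1 covers the large droplet of a fat cell and keeps lipases away until a hormone signal phosphorylates it. CIDEC and CIDEA sit where droplets touch and help them to fuse into larger ones. PLIN2 and PLIN3 are made in most cell types, and PLIN5 belongs to tissues that burn fat, where it ties droplets to mitochondria. Triacylglycerol is taken apart in steps, by PNPLA2 (adipose triglyceride lipase), then LIPE (hormone-sensitive lipase), then MGLL (monoglyceride lipase).

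The libraries held between 16283873 and 17192750 counted reads. Reads in this 3′ method gather at the end of a transcript, so counts were not divided by gene length. Values below are normalized counts, scaled with trimmed mean of M-values (TMM) factors to a common library size, and fold changes are high over low NFMP from edgeR's quasi-likelihood test over 15039 rows. By the study's threshold a gene passed when its unadjusted p was under 0.05 and it differed more than 2-fold, and an adjusted p (Benjamini-Hochberg over all tested rows) was added. SE stands for standard error. The labelled tissue was checked against 9 muscle fibre markers, which summed to between 1690820 and 2111400 normalized counts per library with 0 of the 9 past the threshold. The fat cell marker ADIPOQ (adiponectin) was present in every library, between 661 and 1608.

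None of the 10 genes passed the study's threshold or had an adjusted p below 0.05 by edgeR, whereas 6 had an unadjusted p below 0.05, all 6 higher in the high-NFMP group. They were CIDEC, CIDEA, PLIN4, PLIN5, LIPE and MGLL, with fold changes between 1.39 and 1.85. Among all tested rows 5.73% were higher and 5.74% lower at that p (11.5% together), 3.90% passed the threshold (2.53% higher and 1.36% lower), and 0.685% had an adjusted p below 0.05. By DESeq2, 6 of the 10 had an unadjusted p below 0.05 and 0 an adjusted one, against 11.3% and 1.94% of all rows. By limma after quantile normalization the numbers were 4 and 0, against 11% and 0% of all rows. As no row had such an adjusted p by limma, that 0 says nothing about the 10 genes. The median log2 fold change of the 10 was 0.54, against 0.02 over all tested rows, and 8 of the 10 had a value above 0, as did 51.9% of all rows. The count of 6 was not stable to single animals, being 3 without steer 3-8, 3 without 10-8 and 1 without 3-3, where 15.3%, 9.94% and 9.28% of all rows had such a p in either direction. With age as a term it was 2 (PLIN5 and MGLL), against 8.38% of all rows. When a term was added for the number (3 or 10) that opens each steer's label, CIDEC passed the study's threshold, as did 3.68% of all rows, and had an adjusted p of 0.0483 by edgeR, with 0.598% of all rows below 0.05.

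**Figure D1:**
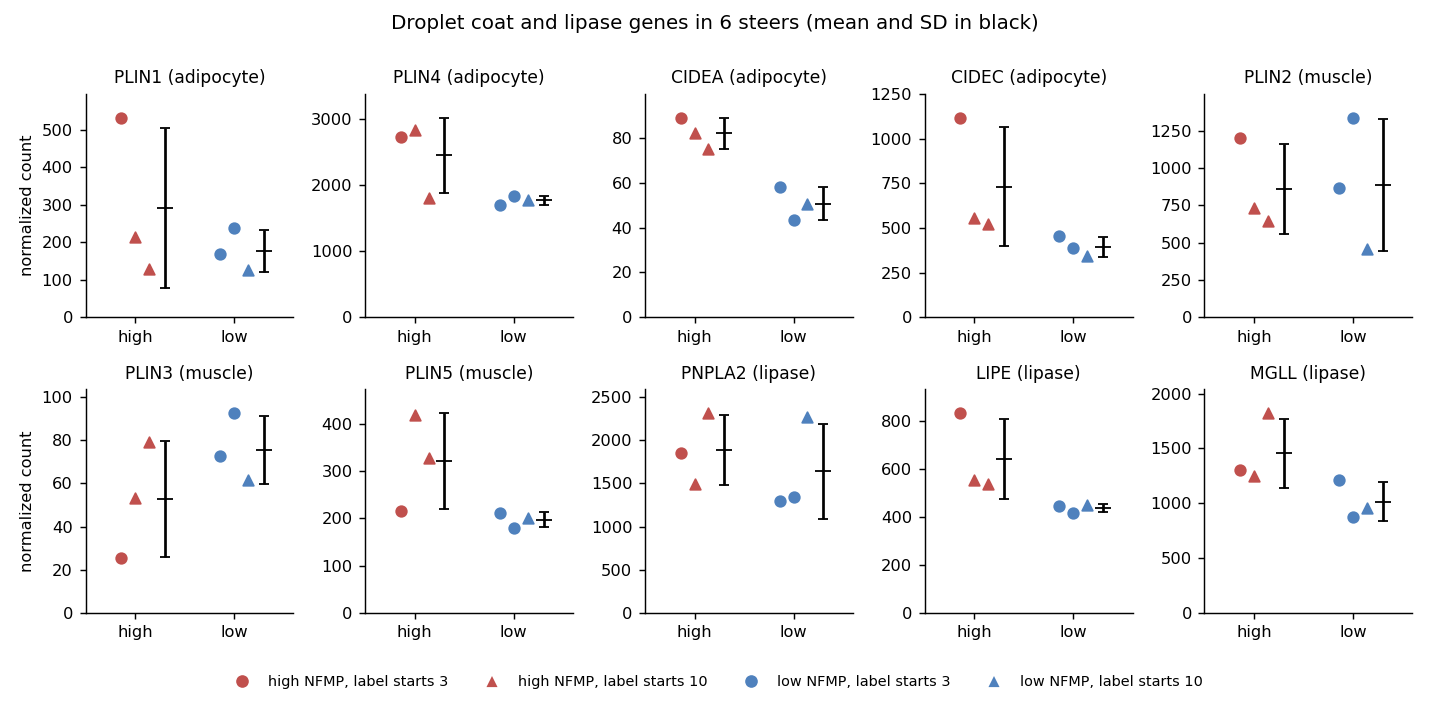
Normalized counts of the 10 genes (y axis, from 0) in high- and low-NFMP steers (x axis), 1 point per steer, with the group mean and SD in black and the marker shape giving the first number of the steer label. CIDEA, CIDEC, PLIN5, LIPE and MGLL show no overlap between the groups, and the PLIN1 point at 532 belongs to steer 3-8.

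Among the adipocyte droplet genes, CIDEC had the smallest p. CIDEC was at 1119, 555 and 524 in the high-NFMP steers 3-8, 10-8 and 10-9, and at 456, 386 and 342 in the low-NFMP steers 3-1, 3-3 and 10-16. Every high-NFMP steer lay above every low-NFMP steer, and 3-8 stood far above the other five animals. The means were 732 ± 335 (SD, n = 3) and 395 ± 57.6 (SD, n = 3), a log2 fold change of 0.89 (SE 0.27, unadjusted p = 0.00615, adjusted p = 0.214 by edgeR). Without steer 3-8 the log2 fold change was 0.45, and with any other steer left out it lay between 0.82 and 1.09.

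CIDEA was counted less often than CIDEC. It was at 89.2, 82.2 and 75.2 in the high-NFMP steers and at 58.4, 43.5 and 50.5 in the low-NFMP steers. The groups did not overlap, and steer 3-8 lay close to the rest of its group here. This gave a log2 fold change of 0.69 (SE 0.30, unadjusted p = 0.0367, adjusted p = 0.405 by edgeR). The unadjusted p of CIDEA was above 0.05 by edgeR without 3-8 (0.0789), 10-8 (0.0526), 3-3 (0.111) or 10-16 (0.0647).

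Groups that did not overlap were found for 5 of the 10 genes (CIDEA, CIDEC, PLIN5, LIPE and MGLL), in each case with the high-NFMP steers above, an arrangement seen in 7.97% of all tested rows. The reverse arrangement was seen in 0 of the 10 and in 9.16% of all rows, so that 17.1% of all rows separated the groups one way or the other. With library totals in place of TMM factors MGLL overlapped (67.9 CPM in high-NFMP steer 10-8 and 73.8 in low-NFMP steer 3-1), which left 4 of the 10 genes, against 6.08% of all rows with the high-NFMP steers above.

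PLIN1 overlapped between the groups, as did PLIN4. Its normalized counts were 532, 213 and 128 in the high-NFMP steers and 169, 237 and 125 in the low-NFMP steers. Steer 3-8 was far above the others, and the remaining high-NFMP steers fell among the low-NFMP ones. Its log2 fold change of 0.72 (SE 0.49, adjusted p = 0.633 by edgeR) had a 95% interval from -0.41 to 1.84, and it became -0.06 when steer 3-8 was left out, 1.08 when 10-9 was, and 0.04 with age as a term. Over the 6 steers the coefficient of variation of PLIN1 was 65.2%, larger than that of 99.0% of the 4522 tested rows whose mean level was within a factor of 2 of it. Counting error alone would give 6.54%.

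PLIN4, a perilipin with a long repeat region that is found in fat cells and in muscle, gave the most counts of the coat genes. It was at 2721, 2829 and 1796 in the high-NFMP steers and at 1694, 1828 and 1774 in the low-NFMP steers. Steers 3-8 and 10-8 were high, whereas 10-9 lay within the low-NFMP range. The means of 2449 ± 568 (SD, n = 3) and 1765 ± 67.4 (SD, n = 3) gave a log2 fold change of 0.47 (SE 0.20, unadjusted p = 0.0314, adjusted p = 0.379 by edgeR). The unadjusted p of PLIN4 was above 0.05 whenever a steer other than 10-9 was left out, with values up to 0.0902 by edgeR. PLIN4 overlaps HDGFL2 by 20 bases in RefSeq's annotation of ARS-UCD2.0. HDGFL2 was at 1170.5, 1139 and 1056 in the high-NFMP steers and at 805, 878 and 779 in the low-NFMP steers, and whether reads were counted on both genes was not tested.

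The muscle droplet genes did not share a direction. PLIN5 was at 216, 419 and 329 in the high-NFMP steers and at 211, 180.4 and 201 in the low-NFMP steers. The groups did not overlap, but steer 3-8 was only just above the highest low-NFMP steer, the opposite of its place in PLIN1 and CIDEC. The log2 fold change was 0.70 (SE 0.25, unadjusted p = 0.0128, adjusted p = 0.279 by edgeR), and it was 0.92 without steer 3-8 and 0.50 without steer 10-8. Without 10-8 (0.0756) or 3-3 (0.0518) the unadjusted p of PLIN5 was above 0.05 by edgeR. Set against the summed muscle fibre markers of the same library, PLIN5 still separated the groups, with 0.128, 0.206 and 0.178 PLIN5 counts per 1000 marker counts in the high-NFMP steers and 0.122, 0.106 and 0.0952 in the low-NFMP steers. Steers 3-8 and 3-1 were close on that scale, on which 7.23% of all tested rows had all high-NFMP steers above.

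PLIN2, the perilipin that most cells put on small droplets, varied widely within both groups. It was at 1203, 731 and 643 in the high-NFMP steers and at 867, 1339 and 456 in the low-NFMP steers. The highest and the lowest of the 6 values both belonged to low-NFMP steers. The log2 fold change was -0.05 with a 95% interval from -0.92 to 0.82 (adjusted p = 0.974 by edgeR), and its sign changed with the steer left out, from -0.37 to 0.37, and it was -0.44 with age as a term.

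PLIN3 was the only gene of the 10 besides PLIN2 with a fold change below 1. PLIN3 was at 25.3, 53.3 and 79.2 in the high-NFMP steers and at 72.7, 92.5 and 61.6 in the low-NFMP steers. Steer 3-8, which had the most PLIN1 and CIDEC, had the least PLIN3. The log2 fold change of -0.52 (SE 0.39, adjusted p = 0.646 by edgeR) had an interval from -1.35 to 0.31. Leaving out 3-8 gave -0.19, and leaving out 10-9 gave -0.93 (unadjusted p = 0.0436 by edgeR).

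**Figure D2:**
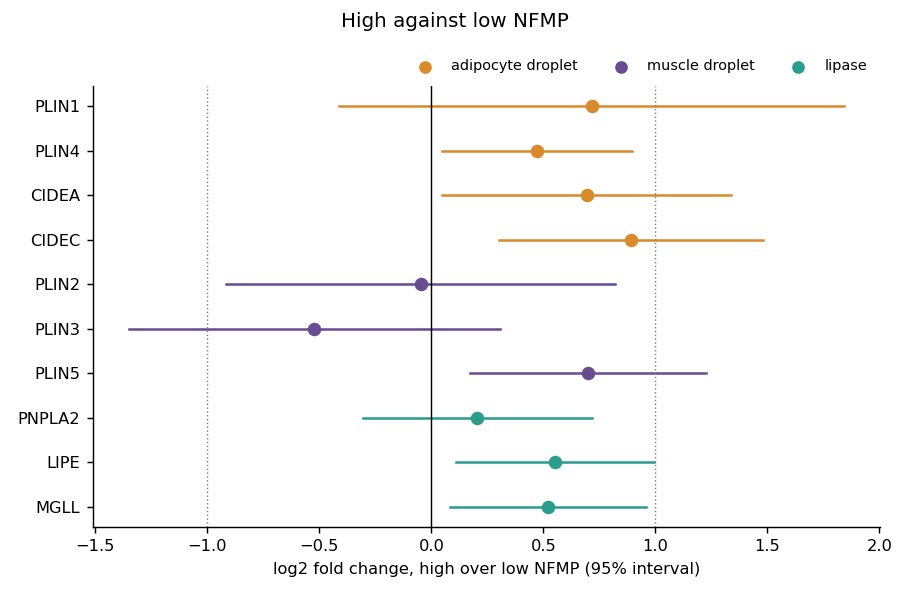
Log2 fold changes of high over low NFMP (x axis) for the 10 genes (y axis), with 95% intervals from the edgeR fit and dotted lines at a fold change of 2 in either direction. The points of the adipocyte genes, PLIN5 and the lipases lie above 0, those of PLIN2 and PLIN3 below, and no point reaches the dotted lines.

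The adipocyte and muscle droplet genes were then set against each other within each library, where the size factors cancel. The 4 adipocyte genes held 75.5%, 75.4% and 70.6% of the summed coat gene counts in the high-NFMP steers and 67.4%, 60.7% and 76.1% in the low-NFMP steers. The highest share belonged to low-NFMP steer 10-16, so the groups overlapped. For steer 10-16 the exact (Clopper-Pearson) 95% interval of the share was 74.6% to 77.6%, and for steer 3-3, the lowest, 59.3% to 62.2%, both for counting error only. The group means were 73.8% ± 2.80 (SD, n = 3) and 68.1% ± 7.72 (SD, n = 3), a difference of 5.75 percentage points that was 2.08 without steer 3-3, 9.77 without steer 10-16 and 9.51 with PLIN4 left out. With PLIN4 left out the shares were 54.6%, 41.4% and 40.9% in the high-NFMP steers and 37.3%, 29.2% and 41.9% in the low-NFMP steers. The groups overlapped there too, with 10-16 above 10-8 and 10-9. No test was made of this share, because it is a score over genes chosen with earlier results known.

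The 2 parts of the share behaved differently. The summed normalized counts of the adipocyte genes were 4461, 3679 and 2523 in the high-NFMP steers and 2378, 2494 and 2292 in the low-NFMP steers. The lowest high-NFMP steer was just above the highest low-NFMP steer with TMM factors, whereas with library totals 10-9, at 149.8 CPM, was below 3-3, at 160.5 CPM. Those of the muscle genes were 1444, 1204 and 1051 against 1151, 1612 and 719, with the high-NFMP steers inside the low-NFMP range. PLIN4 alone made up between 61.0% and 77.4% of the adipocyte gene counts, and PLIN2 between 60.8% and 83.3% of the muscle gene counts. When each gene was given equal weight as a mean log2 value, the adipocyte minus muscle difference was 1.71, 0.68 and 0.27 in the high-NFMP steers and 0.32, 0.05 and 0.48 in the low-NFMP steers, and the groups overlapped on that scale also.

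**Figure D3:**
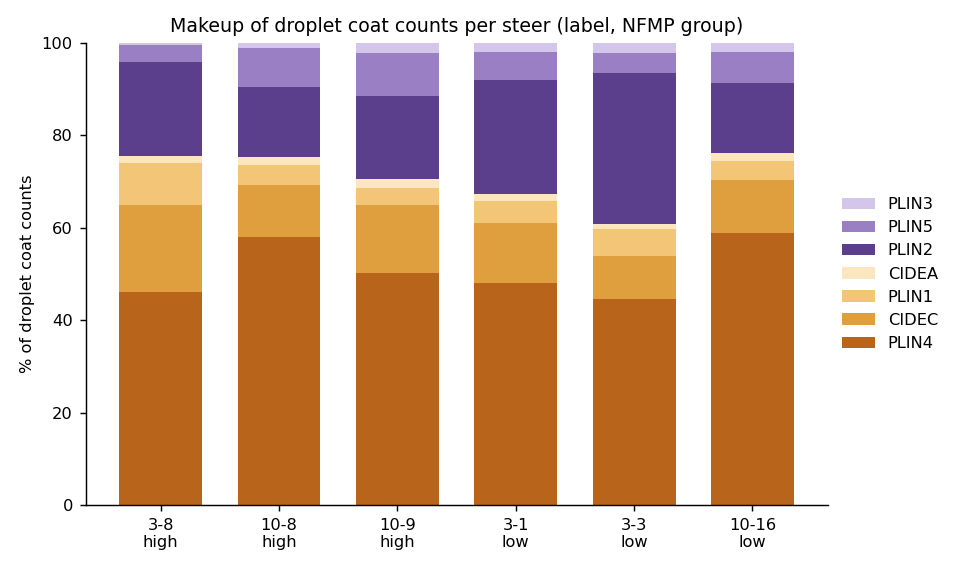
Share of each gene in the counts of the 7 coat genes (y axis, percent) in each steer (x axis, with its NFMP group), with adipocyte genes in orange and muscle genes in purple. The orange part runs from 60.7% in steer 3-3 to 76.1% in steer 10-16, both low-NFMP steers.

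Of the lipases, LIPE and MGLL separated the groups and PNPLA2 did not. LIPE, which acts on diacylglycerol, was at 832, 555 and 538 in the high-NFMP steers and at 447, 416 and 449 in the low-NFMP steers. The low-NFMP steers were close together, with a mean of 438 ± 18.3 (SD, n = 3), against 641 ± 165 (SD, n = 3). The log2 fold change was 0.55 (SE 0.21, unadjusted p = 0.0178, adjusted p = 0.316 by edgeR), and 0.32 without steer 3-8. Without 3-8 (0.0982) or 3-3 (0.0612) the unadjusted p of LIPE was above 0.05 by edgeR. MGLL, which frees the last fatty acid, was at 1302, 1247 and 1820.3 in the high-NFMP steers and at 1213, 873 and 959 in the low-NFMP steers. Here 10-9 and not 3-8 was the highest animal. Its log2 fold change was 0.52 (SE 0.20, unadjusted p = 0.0224, adjusted p = 0.341 by edgeR), and 0.34 without steer 10-9. Without 10-9 (0.104), 3-3 (0.101) or 10-16 (0.0587) the unadjusted p of MGLL was above 0.05 by edgeR.

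PNPLA2, which takes the first fatty acid from triacylglycerol, was at 1851, 1498 and 2312 in the high-NFMP steers and at 1293, 1347 and 2273 in the low-NFMP steers. Steers 10-9 and 10-16 were the highest, 1 from each group. For PNPLA2 the log2 fold change was 0.20 with an interval from -0.31 to 0.71 (adjusted p = 0.778 by edgeR). It was 0.55 without steer 10-16 (unadjusted p = 0.0375 by edgeR), and 0.05, 0.06 and 0.08 without 10-9, 3-1 and 3-3. The count ratio of PNPLA2 to LIPE ran from 2.23 in steer 3-8 to 5.06 in steer 10-16 and overlapped between the groups, with means of 3.08 ± 1.09 (SD, n = 3) and 3.73 ± 1.16 (SD, n = 3).

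Most fat cell markers also had fold changes above 1, although few passed a test. Of 12 adipocyte markers outside the 10 genes, 11 were tested, with a median log2 fold change of 0.61. A log2 fold change above 0 was found for 10 of the 11, against 51.9% of all rows. An unadjusted p below 0.05 by edgeR was found for 3 (ADIPOQ, FASN and TRARG1), against 11.5% of all rows. The study's threshold was passed by 1 (FASN, fatty acid synthase), against 3.90% of all rows. The summed normalized counts of the 12 markers lay between 12331 and 17195 in the high-NFMP steers and between 10874 and 11750.4 in the low-NFMP steers. GPD1 had the highest group means of them and weighed heavily in that sum. GPD1 was at 4356, 8037 and 7655 in the high-NFMP steers and at 5645, 5325 and 6391 in the low-NFMP steers, so it overlapped. The separation of the sums was not tested without GPD1. ADIPOQ was at 1608, 961 and 1016 in the high-NFMP steers and at 705, 947 and 661 in the low-NFMP steers, a log2 fold change of 0.63 (SE 0.23, unadjusted p = 0.0141, adjusted p = 0.291 by edgeR). ADIPOQ and CFD separated the groups with the high-NFMP steers above, as did 7.97% of all rows, and the other tested markers overlapped. LEP was at 194, 47.8 and 52.2 in the high-NFMP steers and at 63.2, 75.9 and 73.7 in the low-NFMP steers. LEP, FABP4 and THRSP were highest in steer 3-8. The log2 fold change below 0 was that of PCK1 (-0.46), at 44.6, 10.0 and 4.01 against 20.1, 43.5 and 17.2. RETN, a hormone gene of fat cells in rodents, was at 0 in 4 of the 6 libraries.

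Measured per ADIPOQ count of the same library, none of CIDEA, CIDEC, PLIN5, LIPE and MGLL separated the groups any longer. On that scale all high-NFMP steers were above in 0.904% and below in 31.8% of all tested rows. There were 696, 577 and 515 CIDEC counts per 1000 ADIPOQ counts in the high-NFMP steers and 647, 408 and 518 in the low-NFMP steers. LIPE was at 517, 577 and 529 against 634, 440 and 679 on the same scale, so that the low-NFMP steers held both the highest and the lowest value. PLIN3 was the 1 gene of the 10 that separated the groups per ADIPOQ count, with 15.8, 55.5 and 78.0 in the high-NFMP steers and 103, 97.8 and 93.1 in the low-NFMP steers. Per summed adipocyte marker count, a sum in which GPD1 weighed heavily, 0 of the 10 genes separated the groups, against 31.6% of all rows in either direction. Per summed muscle fibre marker count 4 did (CIDEA, CIDEC, PLIN5 and LIPE), all with the high-NFMP steers above, as in 7.23% of all rows. These divisors were chosen after the values had been seen.

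Across the 6 steers, the gene with the pattern most like that of PLIN1 was FABP4, the fatty acid binding protein of fat cells. Likeness was the root mean square difference between log2 normalized counts centred on the mean of the 6 steers, and FABP4 was at 0.15 from PLIN1, the smallest value among 10867 rows with a mean of 50 normalized counts or more. FABP4 was at 4945, 1618 and 1019 in the high-NFMP steers and at 1617, 2044 and 1294 in the low-NFMP steers. PLIN1 varied 4.25-fold between steers. There were 108, 132 and 126 PLIN1 counts per 1000 FABP4 counts in the high-NFMP steers and 105, 116 and 96.7 in the low-NFMP steers. FABP4 was picked by this likeness, so the narrow range of that ratio restates the choice and is not a separate result.

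The second gene in that order was G0S2, which encodes an inhibitor of PNPLA2, at a distance of 0.21. G0S2 was at 675, 250.0 and 231 in the high-NFMP steers and at 242, 389 and 181 in the low-NFMP steers, with steer 3-8 highest and 3-3 next, as for PLIN1. The third was LOC112446118, at 0.26. CIDEC, although it coats the same droplets, kept the 10-8 and 10-9 values above the low-NFMP ones, which PLIN1 and FABP4 did not. For PLIN2 the closest genes were MRAS, PDZRN4 and FIGN, at 0.16, 0.19 and 0.19, with log2 fold changes of 0.17, -0.01 and -0.003 between the NFMP groups. These distances rest on 6 libraries and were not tested.

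**Figure D4:**
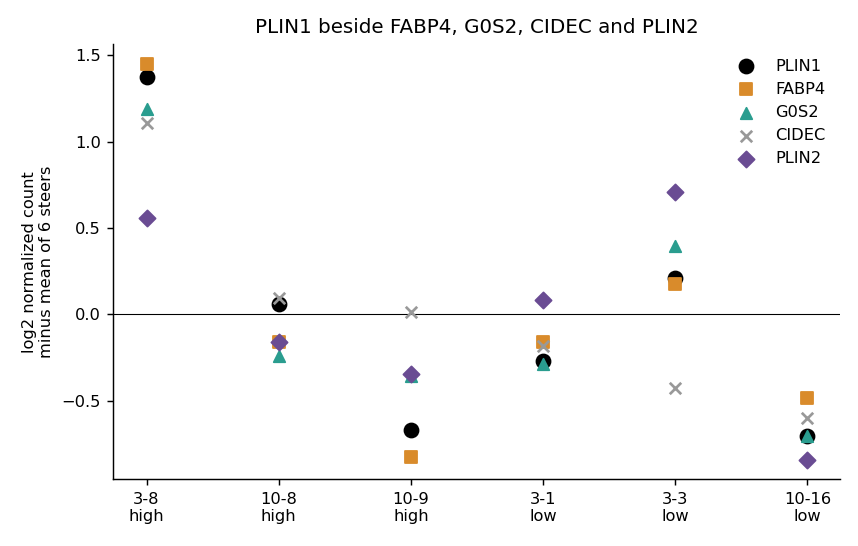
Log2 normalized counts minus the mean of the 6 steers (y axis) for PLIN1, FABP4, G0S2, CIDEC and PLIN2 in each steer (x axis, with its NFMP group). FABP4 and G0S2 stay near PLIN1 in all 6 steers, whereas CIDEC lies above PLIN1 in 10-9 and below it in 3-3.

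The steer labels begin with 3 or with 10, and the labels do not say what this number stands for. The high-NFMP group held 1 steer with a 3 and 2 with a 10, and the low-NFMP group the reverse. PLIN2 separated the steers by this number and not by NFMP, with 1203, 867 and 1339 in steers 3-8, 3-1 and 3-3 and 731, 643 and 456 in steers 10-8, 10-9 and 10-16. Such a separation was seen in 1 of the 10 genes and in 14.1% of all tested rows. Between the label numbers 6.64% of all rows had an unadjusted p below 0.05 and 0.0133% an adjusted p below 0.05. In a fit with the NFMP group as a term, PLIN2 had a log2 fold change of 1.04 between steers labelled 3 and 10 (SE 0.22, unadjusted p = 0.000514, adjusted p = 0.5 by edgeR). In the same fit PLIN1 was at 1.19 (unadjusted p = 0.00132, adjusted p = 0.548 by edgeR) and CIDEC at 0.68 (unadjusted p = 0.00604, adjusted p = 0.715 by edgeR), so 3 of the 10 genes had an unadjusted p below 0.05. PLIN1 and CIDEC overlapped between the label numbers. This comparison was added after the PLIN2 values had been seen.

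Macrophages also make PLIN2. The 6 macrophage markers together summed to 774, 517 and 802 in the steers labelled 3 and to 525, 562 and 437 in those labelled 10, so their sums overlapped. The most counted of them, CD163, was at 264, 207 and 339 in the steers labelled 3 and at 66.7, 137 and 147 in those labelled 10, whereas CSF1R was at 52.7, 34.4 and 47.2 against 57.8, 85.2 and 36.3. Their part in the PLIN2 result was not tested. The count ratio of PLIN2 to PLIN5 was 5.57, 4.10 and 7.42 in the steers labelled 3 and 1.75, 1.95 and 2.27 in those labelled 10.

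**Figure D5:**
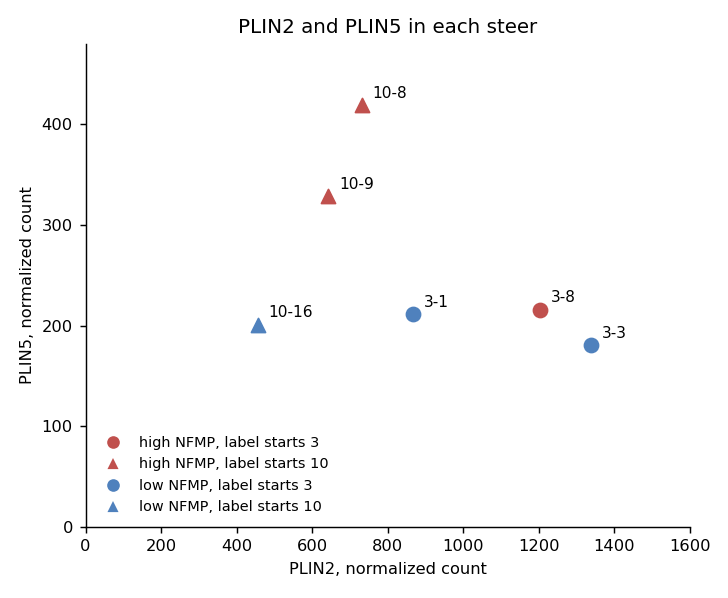
PLIN5 (y axis) against PLIN2 (x axis), both in normalized counts, with 1 point per steer, coloured by NFMP group and shaped by the first number of the label. The circles (label 3) lie to the right of the triangles (label 10), and high-NFMP steers 10-8 and 10-9 lie above the other four.

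Within each label number, all high-NFMP steers lay above all low-NFMP steers for 7 of the 10 genes (PLIN1, PLIN4, CIDEA, CIDEC, PLIN5, LIPE and MGLL), an arrangement seen in 14.9% of all tested rows. PLIN1 is an example, at 532 against 169 and 237 in the steers labelled 3 and at 213 and 128 against 125 in those labelled 10. With the label number as a term, CIDEC passed both the study's threshold and an adjusted p below 0.05, as did 3.68% and 0.598% of all rows. Its log2 fold change was 1.04 (SE 0.21, unadjusted p = 0.00028, adjusted p = 0.0483 by edgeR). In that fit PLIN1 had a log2 fold change of 0.94 (unadjusted p = 0.00626, adjusted p = 0.243 by edgeR). PLIN5 was at 0.52 there, with an unadjusted p no longer below 0.05 (unadjusted p = 0.061, adjusted p = 0.532 by edgeR).

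Further genes of droplet making and lipolysis were taken from 4 lists, of which 42 of 49 genes were tested. The study's threshold was passed by 2 in the higher and 2 in the lower direction, 9.52% of those tested, against 3.90% of all rows, and the median log2 fold change was 0.09. Genes of the lipolysis control list, which holds signal genes and also regulators of PNPLA2 such as ABHD5 and G0S2, did not pass it in either direction (0 of 10 tested). The most counted of them were GNAS, the stimulatory G protein subunit, at a log2 fold change of -0.37, and PRKACA, a catalytic subunit of protein kinase A, at 0.04. PRKACB, another catalytic subunit of that kinase, was at 471, 306 and 381 in the high-NFMP steers and at 998, 716 and 474 in the low-NFMP steers, a log2 fold change of -0.92 (SE 0.26, unadjusted p = 0.00344, adjusted p = 0.166 by edgeR). The adjusted p of PRKACB was 0.0496 by DESeq2, 0.0244 with no filter and up to 0.583 under the other alternatives, and it passed the study's threshold without 3-8 (-1.09) or 10-16 (-1.12). ABHD5, the partner that activates PNPLA2, had a log2 fold change of -0.32 (adjusted p = 0.652 by edgeR).

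Among genes that build droplets, TMEM159, which works with seipin where new droplets form, was lower. TMEM159 was at 203, 361 and 155 in the high-NFMP steers and at 442, 850.4 and 429 in the low-NFMP steers. Every high-NFMP steer lay below every low-NFMP steer, with a log2 fold change of -1.26 (SE 0.35, unadjusted p = 0.00453, adjusted p = 0.189 by edgeR). The adjusted p of TMEM159 was 0.0136 by DESeq2 and between 0.0569 and 0.422 under the other alternatives. Without steer 3-3 its log2 fold change was -0.87 and no longer past the study's threshold. The seipin gene BSCL2 itself had a log2 fold change of 0.41 (adjusted p = 0.722 by edgeR), and the most counted genes of the list, ACSL3 and FITM1, had values of 0.05 and 0.18. FITM2, which helps droplets bud from the endoplasmic reticulum, was at 0.53 (unadjusted p = 0.0493, adjusted p = 0.435 by edgeR), and its unadjusted p was above 0.05 with library totals (0.0844), DESeq2 (0.0537), quantile normalization (0.0722) and the label number as a term (0.129), among others.

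Of 8 other lipases tested, LIPG (endothelial lipase) was lower and CES1 (a carboxylesterase) was higher at the study's threshold, both at low counts. LIPG was at 19.3, 10.0 and 7.02 in the high-NFMP steers and at 20.1, 44.4 and 40.4 in the low-NFMP steers, a log2 fold change of -1.52 (adjusted p = 0.261 by edgeR), and it was not tested when at least 10 counts were asked of every library. CES1 was at 31.4, 27.8 and 40.1 against 13.4, 13.9 and 22.2, a log2 fold change of 1.00 (adjusted p = 0.408 by edgeR), and it lost the threshold when 3-8, 10-9, 3-1 or 3-3 was left out, with label number or age as a term, with library totals, with no filter and with quantile normalization. The most counted, LPL (lipoprotein lipase) and DDHD2, had log2 fold changes of 0.06 and 0.24.

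PPAR receptors sense fatty acids and switch on several droplet genes. In the list of the PPAR system and its fatty acid oxidation targets, PPARD was the 1 of 13 tested genes with an adjusted p below 0.05 by edgeR. Among all tested rows 0.685% had such an adjusted p. PPARD was at 878, 756 and 939 in the high-NFMP steers and at 427, 234 and 387 in the low-NFMP steers, a log2 fold change of 1.30 (SE 0.23, adjusted p = 0.017 by edgeR). PPARD kept the study's threshold whichever steer was left out, with adjusted p values between 0.0153 and 0.106 by edgeR (above 0.05 without 3-8, 10-9 or 3-3). By limma after quantile normalization its adjusted p was 0.171, where 0% of all rows were below 0.05. Under the other alternatives with all steers kept, the adjusted p of PPARD was at most 0.0388. Of the 13, 8 had a log2 fold change above 0. The most counted, PDK4 and UCP3, were at -0.51 and -0.24 (adjusted p = 0.451 and 0.758 by edgeR), and the fatty acid binding protein FABP3 was at 0.37 (adjusted p = 0.684 by edgeR). PPARG, the receptor of fat cells, was at 0.44 (adjusted p = 0.610 by edgeR), with steer 3-8 at 283 and the other five between 130.2 and 142.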

How the data were processed

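The authors made libraries with a Lexogen 3′ mRNA kit (SENSE 3′ in the paper, Quant-Seq in the labels) and deposited raw counts of reads per gene symbol, 1 file per steer. Their methods name Tophat2 with HTSeq in one place and Bowtie2, with unique and multiple alignments counted, in another. The labels name Bowtie2 and bedtools. Neither source says how strand was used.

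Tests were run in edgeR 4.0.16 under R 4.3.3. Its default filter (minimum count 10, minimum total 15) on the NFMP group kept 15039 of 23015 rows and at least 99.85% of the reads of a library. TMM factors, robust dispersions and the quasi-likelihood test followed. Standard errors and 95% intervals came from the log2 fold change and its F statistic. The biological coefficient of variation was 25.1%. An exact permutation test of 3 against 3 cannot go below 0.1. The steers are separate animals.

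Members and gene lists were chosen with earlier results of these data known. Named were all 10 members, list genes past the threshold, the 2 most counted genes of each pathway list, the 3 patterns nearest to PLIN1 and to PLIN2, and genes that overlap a member. PRKACB, ABHD5, BSCL2, FITM2, FABP3, PPARG, PPARGC1A, CD163, CSF1R and the comparison by label number were chosen after their values were seen. All 10 members matched the RefSeq table of ARS-UCD2.0, whose coordinates are not printed because the build of the counts differs or is not certain. Alternatives were RLE factors, library totals, 2 other filters, DESeq2 1.42.0, quantile normalization of log2(count + 1) with limma 3.58.1, a term for label number or for age, and leaving out 1 steer at a time. The fit was tested on simulated data. Intervals cover counting error only where stated.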

Additional observations from a re-analysis of the deposited data

How the results depend on the processing

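Over 14 alternatives, 129 of the 140 log2 fold changes of the 10 genes kept their direction and their side of the study's threshold, 5 gained the threshold (CIDEC 4 times, PLIN1 once) and 6 changed sign. PLIN2 was 0.070 with quantile normalization and limma and 0.35 with the label number as a term, -0.44 with age as a term, and between -0.37 and 0.37 with a steer left out. PLIN1 lay between -0.058 and 1.08 with a steer left out and was 0.04 with age. The number of the 10 genes past the threshold, 0 in the reported fit, was 1 with the label number as a term (also 1 at an adjusted p below 0.05) and between 0 and 2 with a steer left out, while 3.68% and between 4.06% and 4.83% of all rows passed it. The number at an unadjusted p below 0.05, 6 in the reported fit, was 2 with age as a term and between 1 and 7 with a steer left out, while 8.38% and between 8.45% and 15.3% of all rows had such a p, against 11.5%. Of the pathway genes, 1 in place of 2 was higher with library totals, with no filter, with quantile normalization and with the label number, and between 1 and 2 with a steer left out. Lower were 1 with at least 10 counts in every library and between 1 and 3 with a steer left out. Over all rows, 969 passed the threshold with no filter and 364 with at least 10 counts in every library, against 586. At an adjusted p below 0.05 there were 103 in the reported fit, 240 with no filter, 291 with DESeq2, 31 with age, 0 with quantile normalization and limma (1657 at an unadjusted p below 0.05), and between 28 and 82 with a steer left out. The cause of these shifts was not tested. No paired analysis was possible because the steer labels pair no animals across the groups. Counting error was largest for PLIN3 (12.4%) and CIDEA (12.3%), while the SE of the log2 fold change was largest for PLIN1 (0.49).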

Other observations

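PPARGC1A, the coactivator of mitochondrial genes, followed the order of PLIN5 at the top. PPARGC1A was at 2850, 5121 and 4058 normalized counts in the high-NFMP steers 3-8, 10-8 and 10-9 and at 2850, 1730.4 and 1764 in the low-NFMP steers 3-1, 3-3 and 10-16, so steers 10-8 and 10-9 were the highest for both genes. The root mean square difference between the centred log2 profiles was 0.23, rank 141 of 10867 rows, so many other genes were closer to PLIN5. PPARGC1A had a log2 fold change of 0.92 (SE 0.25, unadjusted p = 0.00249, adjusted p = 0.145 by edgeR). Its adjusted p was 0.0294 by DESeq2, 0.0439 with no filter, and between 0.0521 and 0.417 under the other alternatives.

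PLIN5 and PLIN4 are neighbours in ARS-UCD2.0 with 0 genes between them, and with TMM factors both were highest in steer 10-8. With library totals PLIN4 was highest in 3-8 (164.9 CPM, against 154.0 in 10-8). PLIN1 overlaps PEX11A by 40 bases, and PEX11A had a log2 fold change of 0.16 (adjusted p = 0.899 by edgeR). MGLL overlaps the long noncoding RNA gene LOC104975612, which held between 3 and 13 counts per library. CIDEA overlaps LOC132343779, which was not analysed here.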
